A study of Rattus norvegicus with 6 samples.

Results

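Toll-like receptors and MyD88 were read in 6 rat tumors from the rows of the deposited table that carry the symbols Tlr1 to Tlr9 and Myd88. All 10 symbols were present, each on 1 row, of 17557 rows under 17030 symbols in all. Of the 10, 4 encode receptors of endosomes (Tlr3, Tlr7, Tlr8 and Tlr9), 5 encode receptors of the cell surface (Tlr1, Tlr2, Tlr4, Tlr5 and Tlr6) and Myd88 encodes the adaptor. A mean of at least 1 FPKM, the minimum for a test, was reached by 9 of the 10 and not by Tlr9. The values are FPKM, the sequenced fragments of a transcript set against its length and against the size of the library, so levels of different genes can be compared within a tumor.

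Toll-like receptors are the innate immune sensors of microbial and damaged-cell products. Those of the cell surface meet bacterial lipids and proteins, while those of endosomes meet nucleic acids. On binding, most of them recruit MyD88, which brings IRAK kinases to the receptor and leads to NF-κB and inflammatory cytokines. TLR3 instead signals through TRIF, the product of Ticam1. Macrophages, neutrophils and dendritic cells are the best known sources of these receptors, and epithelial and tumor cells can carry some of them.

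The tumors grew from PAIII cells, a transplantable prostate adenocarcinoma kept by passage in Lobund-Wistar rats, injected under the skin of the flank of rats of the same strain aged 2 months. Digitoxin, a cardiac glycoside, was injected into the peritoneum daily at 0.03 mg/kg from day 10 (rats A1, A6 and A12, n = 3), controls received vehicle alone (rats B5, B9 and B14, n = 3), and tumors were taken on day 40. The digitoxin-treated rats were taken from those with low serum IL-6 and CINC-1 and the controls from those with high, so treatment and serum cytokine level cannot be told apart. One library was made per rat from 10 micropunches of 1 mm in 300 micron sections, so each library is a mixture of tumor and host cells, in which fewer cells of a type and less RNA per cell cannot be told apart.

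The libraries did not all hold the same tissue. The summed FPKM of 7 alveolar epithelium markers was 17.5 in A12 and 25.2 in B14 and from 26952 to 82360 in the other 4, and the surfactant mRNA Sftpc was listed at 0 in B14 and reached 0.229 FPKM in A12. Alveolar epithelium is lung tissue, whereas the study describes the sequenced samples as primary tumors, which grew in the flank. How these mRNAs came into the other 4 libraries was not tested. A12 and B14 also lay apart from the other 4 on the first principal component, which took up 76.9% of the variance. The epithelial keratin mRNA Krt8 ran from 398 to 2095 FPKM, whereas the prostate markers Pbsn and Hoxb13 were listed at 0 or at most 0.0937 FPKM in each tumor. Summed over all rows, FPKM came to between 651322 and 1025231 a library, the depth is unknown, and values are given below for each library because of these differences. A6 stood apart in another way, with 6 cell division markers summing to 51.6 FPKM against 246 to 438 in the other 5, and all 6 of these markers were lower on average with digitoxin. The summed fibroblast markers were 2778 in A12 and 3927 in B14 against 214 to 834 in the others. Nearly all of that sum was matrix mRNA (Col1a1, Col3a1, Dcn and Lum). Pdgfra, also on the list, was highest in A6 at 10.8 FPKM, with 5.62 in A12 and 9.22 in B14. Groups follow the labels. An earlier comparison with the study's own gene list raised a doubt about the labels of A1 and B9. It was not repeated here, and the differences between groups take the labels as given.

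Tlr2 mRNA was the most abundant of the receptor mRNAs in all 6 tumors, and Tlr9 was the least abundant or listed at 0 in all 6. Myd88 mRNA exceeded every single receptor in every tumor. TLR2 recognizes bacterial lipoproteins as a dimer with TLR1 or TLR6. Its mRNA was at 12.4, 17.0 and 8.42 FPKM in tumors A1, A6 and A12 and at 21.1, 14.4 and 15.3 FPKM in controls B5, B9 and B14. B5 was highest and A12 lowest, and Tlr2 alone held from 29.7% (B9) to 49.8% (A6) of the summed receptor FPKM.

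By mean FPKM over the 6 tumors, Tlr2 (14.8) was followed by Tlr4 (5.87), Tlr1 (3.59), Tlr6 (3.45), Tlr7 (2.87), Tlr3 (2.85), Tlr8 (1.98), Tlr5 (1.78) and Tlr9 (0.0489). Tlr2 was above Tlr4, and Tlr5 above Tlr9, in 6 of 6 tumors. The order between them was not kept by every tumor. Tlr4 exceeded Tlr1 in 4 of 6 tumors, Tlr1 exceeded Tlr6 in only 2 of 6, and Tlr7 exceeded Tlr3, and Tlr8 exceeded Tlr5, in 4 of 6. Tlr6 exceeded Tlr7, and Tlr3 exceeded Tlr8, in 5 of 6. These neighbors differ by less than their spread over tumors. Against all 10749 rows whose mean reached 1 FPKM, the mean of Tlr2 lay at the 46.0th percentile, that of Tlr8 at the 6.52nd and that of Myd88 at the 80.4th.

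**Figure D1:**
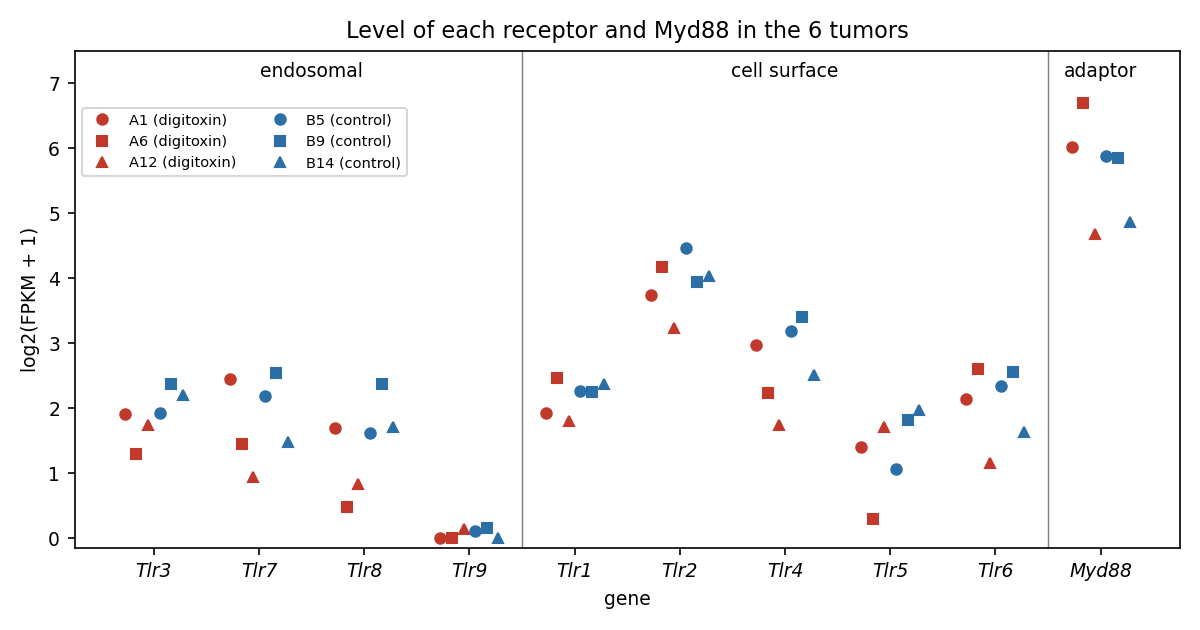
Level of each of the 10 mRNAs, as log2(FPKM + 1), in each tumor (digitoxin-treated in red, control in blue, 1 symbol per rat), with the 4 endosomal receptors at left, the 5 of the cell surface in the middle and the adaptor at right. Tlr2 is the highest receptor and Tlr9 the lowest in each tumor, A6 is lowest for Tlr3, Tlr5 and Tlr8, and A12 is lowest for Tlr1, Tlr2, Tlr4, Tlr6, Tlr7 and Myd88.

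The surface receptors other than Tlr2 did not share 1 order of tumors. TLR4, the lipopolysaccharide receptor, had mRNA at 6.84, 3.70 and 2.34 FPKM in A1, A6 and A12 with digitoxin and at 8.07, 9.58 and 4.67 FPKM in B5, B9 and B14 without it. B9 and B5 were highest, and A12 and A6 lowest. Tlr1 and Tlr6, which encode the partners of TLR2, lie beside each other in the table on chromosome 14, Tlr6 from 44835325 to 44850999 and Tlr1 from 44871930 to 44874283, 20931 bases apart. Tlr1 was at 2.80, 4.54 and 2.49 FPKM in tumors A1, A6 and A12 and at 3.8, 3.77 and 4.16 FPKM in controls B5, B9 and B14, and Tlr6 was at 3.40, 5.05, 1.22, 4.07, 4.87 and 2.10 in the same order. Both were highest in A6 and lowest in A12. Their ratio, Tlr1 over Tlr6, was from 0.773 to 0.933 in A1, A6, B5 and B9 but 2.04 in A12 and 1.98 in B14, the pair that lacked surfactant mRNAs. TLR5 binds flagellin, and its mRNA was at 1.65, 0.230 and 2.28 FPKM in A1, A6 and A12 with digitoxin and at 1.10, 2.52 and 2.92 FPKM in B5, B9 and B14 without it. It spanned 12.7-fold between A6 and B14, the widest fold range of the 9 mRNAs with a mean above 1 FPKM, and unlike the other surface receptors it was in A12 at a level between those of B5 and B9.

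Of the endosomal receptors, Tlr3 and Tlr8 were lowest in A6 and Tlr7 in A12. TLR3 binds double-stranded RNA, and its mRNA was at 2.75, 1.45 and 2.35 FPKM in tumors A1, A6 and A12 and at 2.78, 4.17 and 3.58 FPKM in controls B5, B9 and B14. All 3 digitoxin-treated tumors were below all 3 controls, with A1 close to B5. Tlr7 and Tlr8 encode receptors for single-stranded RNA and guanosine or uridine, and stand next to each other on chromosome X in the table, from 28883040 to 28908313 and from 28932433 to 28955156, 24120 bases apart. The genome build behind these positions is not given in the sources used here, since the submitters' processing notes name only hg19, a human assembly. Tlr7 was at 4.47, 1.74 and 0.923 FPKM in A1, A6 and A12 with digitoxin and at 3.54, 4.79 and 1.79 FPKM in B5, B9 and B14 without it, and B9 and A1 were the highest. Tlr8 was at 2.22, 0.388, 0.776, 2.06, 4.18 and 2.28 in the same order. A6 and A12 were below the other 4 tumors for Tlr8, a 10.8-fold range from A6 to B9, and the ratio of Tlr7 to Tlr8 ran from 0.783 in B14 to 4.47 in A6. Tlr9, whose product binds unmethylated CpG DNA, was listed at 0 in A1, A6 and B14 and at 0.0990 in A12, 0.0772 in B5 and 0.117 in B9, in FPKM. A 0 in this table can be a failed estimate, since the collagen gene Col1a2 was listed at 0 in all 6 tumors while Col1a1 reached 1665 FPKM.

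The 100 bases before the RefSeq start of Tlr7, Tlr8, Tlr4 and Myd88 are shown because these are the genes with a match to AGGAAG or GAAANNGAAA that near to the start, with Tlr2, the most abundant receptor, for contrast. Capitals mark a match, on either strand, to AGGAAG (the core of many ETS factor sites, PU.1 among them) or GAAANNGAAA (interferon regulatory factor type). The sequences are from RefSeq on GRCr8, written 5′ to 3′ on the strand of the gene. Windows are chrX:30644326-30644425 on the plus strand for Tlr7, chrX:30708626-30708725 plus for Tlr8, chr5:85161147-85161246 plus for Tlr4, chr2:171504558-171504657 minus for Tlr2 and chr8:127956231-127956330 minus for Myd88.
Tlr7: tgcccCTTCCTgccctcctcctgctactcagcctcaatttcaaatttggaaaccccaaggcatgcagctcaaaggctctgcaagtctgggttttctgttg
Tlr8: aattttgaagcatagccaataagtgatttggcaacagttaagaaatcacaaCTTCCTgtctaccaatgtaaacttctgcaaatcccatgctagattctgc
Tlr4: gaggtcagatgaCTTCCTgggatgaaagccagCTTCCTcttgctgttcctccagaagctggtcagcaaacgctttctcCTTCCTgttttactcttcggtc
Tlr2: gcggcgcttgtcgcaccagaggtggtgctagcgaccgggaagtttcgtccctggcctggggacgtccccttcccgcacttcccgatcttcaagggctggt
Myd88: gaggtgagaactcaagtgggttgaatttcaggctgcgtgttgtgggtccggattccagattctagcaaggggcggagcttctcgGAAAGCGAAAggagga

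Within 250 bases upstream of the start, AGGAAG was found for 5 of the 10 genes (Tlr1, Tlr4, Tlr7, Tlr8 and Tlr9), against 29.5% of all 33469 windows of that length, and GAAANNGAAA for Myd88 alone, against 3.41%. TGANTCA, an AP-1 type motif, was found for Tlr9 and Myd88, against 6.34% of windows, and GGGANNTTCC, an NF-κB type motif, for none of the 10, against 1.08%. None of these 4 motifs contains another. In the printed windows Tlr4 holds 3 matches to AGGAAG, Tlr7 and Tlr8 hold 1 each, all on the opposite strand, and Tlr2 holds none. A match is a description of the letters and not of binding.

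Set against each other, the classes differed in the same direction in each tumor. The 5 surface receptors summed to 27.1, 30.5 and 16.7 FPKM in tumors A1, A6 and A12 and to 38.1, 35.1 and 29.1 FPKM in controls B5, B9 and B14. The 4 endosomal receptors summed to 9.44, 3.58, 4.15, 8.46, 13.2 and 7.64 FPKM in the same order. The endosomal sum was therefore the lower in 6 of 6 tumors, and it made up from 10.5% (A6) to 27.4% (B9) of all receptor FPKM. Much of the gap was Tlr2. With Tlr2 taken out of the surface sum, the ratio of endosomal to surface FPKM ran from 0.265 in A6 to 0.643 in A1, and it was still below 1 in each tumor.

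With Tlr2 included, the ratio of endosomal to surface FPKM was 0.348, 0.117 and 0.248 in A1, A6 and A12 with digitoxin and 0.222, 0.377 and 0.262 in B5, B9 and B14 without it. A6 stood lowest and B9 highest, and the groups overlapped. The mean was 0.238 ± 0.116 (SD, n = 3) in digitoxin-treated and 0.287 ± 0.0806 (SD, n = 3) in control tumors. On the log2 scale the difference, digitoxin-treated minus control, was -0.37 and became 0.0691 without A6, so its direction rests on A6. Without A12 and B14 it was -0.52. Because the ratio is a score over genes chosen with results of these data known, no p is given. A6 was low for the endosomal class and high for part of the surface class: relative to A1, the other digitoxin-treated tumor rich in surfactant mRNA, A6 had 0.175 times as much Tlr8, 0.388 times as much Tlr7 and 0.528 times as much Tlr3, but 1.62 times as much Tlr1, 1.36 times as much Tlr2 and 1.49 times as much Tlr6. Tlr5 and Tlr4, also of the surface, were at 0.140 and 0.541 times their A1 level, so within A6 low values were not confined to the endosomal class.

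**Figure D2:**
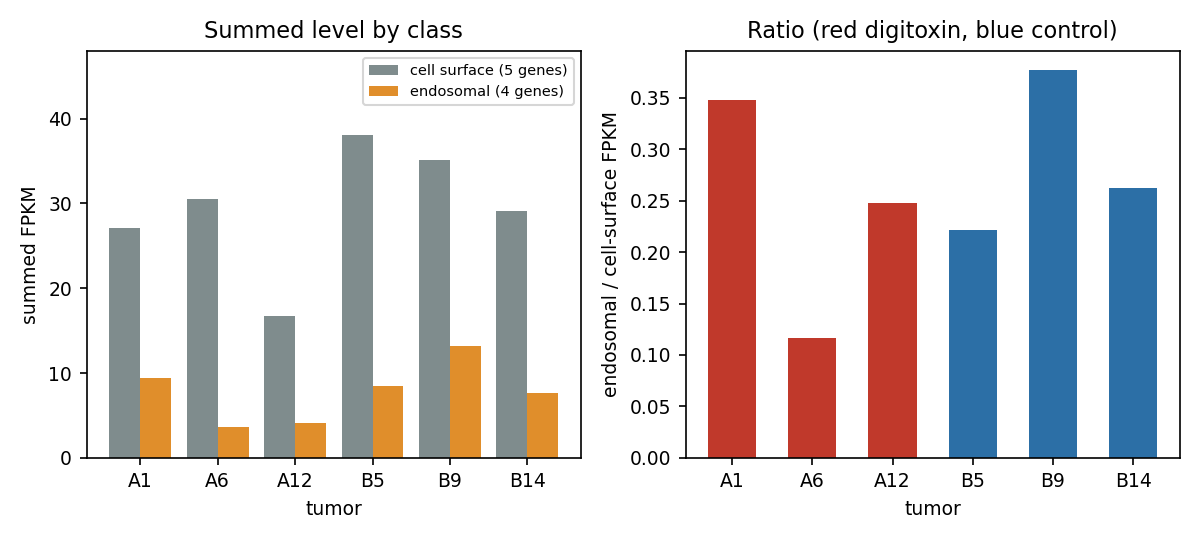
Left, summed FPKM of the 5 cell-surface receptors (grey) and the 4 endosomal receptors (orange) in each tumor; right, the ratio of the endosomal to the surface sum, with digitoxin-treated tumors in red and controls in blue. The surface sum is the higher in each tumor, and the ratio runs from 0.117 in A6 to 0.377 in B9 with overlapping groups.

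Myd88 mRNA was at 63.7, 103 and 24.5 FPKM in tumors A1, A6 and A12 and at 57.6, 56.9 and 28.1 FPKM in controls B5, B9 and B14. A6 was highest, and A12 and B14 were the lowest in their groups and overall. Myd88 was from 0.764 (B14) to 3.02 (A6) times the summed FPKM of the 9 receptors, and the groups overlapped. The tumors fell in the same order for Myd88 as for the summed FPKM of the 4 leukocyte markers (Ptprc, Cd53, Laptm5 and Coro1a), which was 677, 885 and 176 in A1, A6 and A12 with digitoxin and 660, 618 and 333 in B5, B9 and B14 without it. Laptm5 and Coro1a carried most of that sum, while Ptprc was highest in B9 and Cd53 in B5, and neither followed the order of Myd88. The summed alveolar and endothelial markers had nearly the same order, with B9 ahead of B5. None of the 4 leukocyte markers was at 0 in any tumor, and the part of leukocyte, alveolar or endothelial content in the level of Myd88 was not tested. The receptors did not follow that order. Their summed FPKM per unit of Ptprc, which encodes CD45, was 1.99 in A12 and 1.85 in B14, against 0.967 to 1.10 in A1, A6, B5 and B9. Receptor mRNA per CD45 mRNA was therefore highest in the pair without surfactant mRNAs, in both groups, although Ptprc itself was lowest there, at 10.5 and 19.9 FPKM.

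Other cell types that carry these receptors also varied. Summed FPKM of 11 macrophage markers ran from 934 to 1180 in digitoxin-treated and from 850 to 1612 in control tumors, with none at 0. This sum joined markers with opposed orders of tumors. Cd68, Aif1 and Marco were highest in A6, and Csf1r and Mrc1 in A1. C1qa, C1qb, C1qc, Msr1, Itgam and Cd163 were all highest in B14 and lowest in A6, with C1qb at 359 and 47.2 FPKM. For 8 neutrophil markers the sum, made up mostly of S100a8 and S100a9, ran from 1298 to 62547 and from 3305 to 32737, and Fpr1 was listed at 0 in A12 and B14. For 4 B cell markers it ran from 12.2 to 29.7 and from 8.74 to 19.3, with Pax5 listed at 0 in A12 and B14 and Ms4a1 at 0 in B14. For 4 conventional dendritic cell markers it ran from 2.76 to 7.53 and from 4.0 to 10.5, with none at 0, and for 4 plasmacytoid dendritic cell markers from 272 to 1225 and from 180 to 599, with Ccr9 at 0 in A6. Nearly all of the last sum was Bst2 (1219 FPKM in A6), while Irf8, also on that list, was lowest in A6 at 2.55 FPKM. The part of these cells in the receptor levels was not tested.

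The design asks whether the mRNAs differed between digitoxin-treated and control tumors. All 8 receptors that reached a mean of 1 FPKM had a lower mean log2 level in the digitoxin-treated tumors and Myd88 a higher one, but none of these 9 passed. Differences were fitted with limma on log2(FPKM + 1), a scale that understates the change of low mRNAs, for the 10749 rows whose mean reached 1 FPKM, with the Benjamini-Hochberg adjustment over all of these rows. At an adjusted p under 0.05 this fit called 0 rows (0%), against 36 at an unadjusted p under 0.05, of which none was a member. Those 36 are far fewer than a threshold of 0.05 would call among 10749 rows with no difference. Few rows of any kind could reach it, so the absence of members there says little about them. Of all rows tested, 64.9% had a log2 fold change below 0, and with the libraries scaled by median of ratios, which moved the median of all rows by 0.18, 48.6%. Of the 4 leukocyte markers, 2 were lower and 2 higher on average with digitoxin. Cd53 was at 94.1, 56.1 and 47.7 FPKM in A1, A6 and A12 and at 149, 95.6 and 97.0 FPKM in B5, B9 and B14, so its groups did not overlap, and 1 of the 4 had an unadjusted limma p under 0.05. Cd53 is also in the study's list from these tumors, so its direction is not independent evidence. Of 11 macrophage markers, 8 were lower on average and none had an unadjusted limma p under 0.05. Their part in the receptor differences was not tested. The same 8 receptors were below 0 with median-of-ratios scaling, where Tlr1 was at -0.0677, Tlr6 at -0.0482, Tlr2 at -0.24 and Tlr8 at -0.79.

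Among the endosomal receptors, Tlr8 had the largest difference. Its mean was 1.13 ± 0.966 against 2.84 ± 1.16 FPKM in controls (SD, n = 3 each), with a log2 fold change of -0.90 (95% interval -1.99 to 0.18, limma adjusted p = 0.926). Tlr3 was at 2.18 ± 0.665 against 3.51 ± 0.696 FPKM (SD, n = 3 each), with a log2 fold change of -0.51 (95% interval -1.33 to 0.30, limma adjusted p = 0.926). It was the 1 member of the 9 tested whose groups did not overlap, where 4.16% of all rows tested had groups that did not. An exact two-sided permutation test gave p = 0.10 for Tlr3, the smallest that 3 tumors against 3 allow. Tlr7 was at 2.38 ± 1.86 against 3.37 ± 1.51 FPKM (SD, n = 3 each), with a log2 fold change of -0.45 (95% interval -1.70 to 0.80, limma adjusted p = 0.926), and A1 exceeded B5 and B14. Tlr7 and Tlr8 are in a gene list that the study drew from these tumors, so their direction is not independent evidence.

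Among the surface receptors the log2 fold changes ran from -0.72 to -0.22. The mean of Tlr4 was 4.29 ± 2.31 against 7.44 ± 2.52 FPKM in controls (SD, n = 3 each), and its log2 fold change was -0.72 (95% interval -1.80 to 0.37, limma adjusted p = 0.926). Tlr2 was at 12.6 ± 4.28 against 16.9 ± 3.63 FPKM (SD, n = 3 each), with a log2 fold change of -0.43 and a 95% interval of -1.24 to 0.39. Tlr5 had a log2 fold change of -0.48 (standard error 0.50), Tlr1 of -0.23 (standard error 0.33) and Tlr6 of -0.22 (standard error 0.50). The 3 tested endosomal receptors had a median log2 fold change of -0.51 and the 5 surface receptors -0.43, where the median of all rows tested was -0.16. Relative to that median they were -0.35 and -0.26, and whether the classes differ in this was not tested. Myd88 was at 63.6 ± 39.1 against 47.5 ± 16.9 FPKM (SD, n = 3 each), with a log2 fold change of 0.26 (95% interval -1.13 to 1.65, limma adjusted p = 0.944). Tlr9 was below the minimum mean and has no test.

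**Figure D3:**
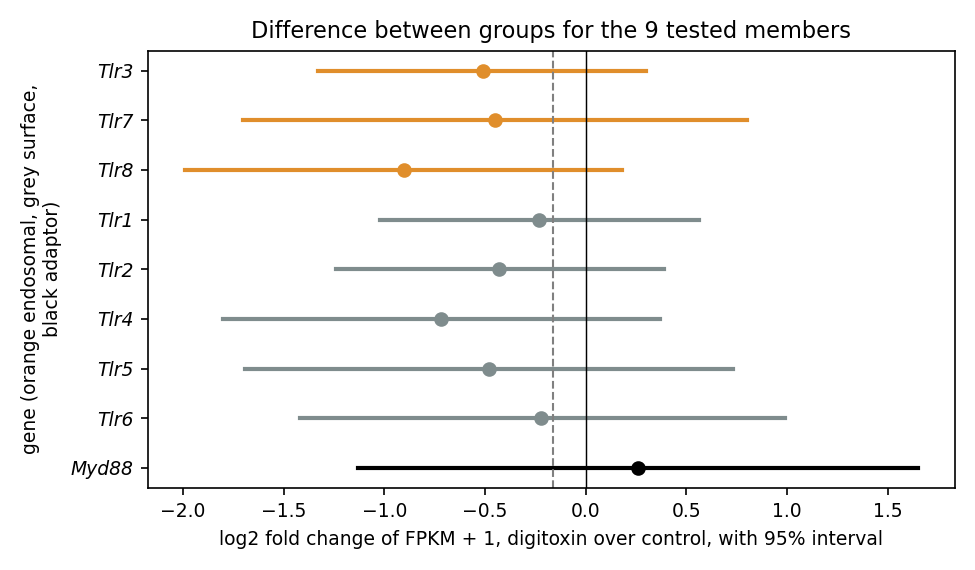
Log2 fold change of FPKM + 1, digitoxin-treated over control (n = 3 each), with the 95% interval of limma, for the 9 tested genes; orange is endosomal, grey surface and black the adaptor, and the dashed line is the median of all rows tested (-0.16). Each interval includes 0, with points from -0.90 for Tlr8 to 0.26 for Myd88.

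Single libraries moved these values. Without A12 the log2 fold change of Tlr6 was 0.19, that of Tlr7 -0.11, that of Tlr1 -0.10, that of Tlr2 -0.18, that of Tlr4 -0.43 and that of Tlr5 -0.77. Without A1 that of Tlr7 was -0.87 and that of Tlr8 -1.25, the latter at an unadjusted limma p of 0.0424. Without A6 that of Tlr1 was -0.43, that of Tlr2 was -0.65, that of Tlr6 was -0.53, that of Tlr3 was -0.33, that of Tlr5 was -0.0588 and that of Myd88 turned to -0.19, and without B14 Myd88 was -0.0707. With A12 and B14 both left out the 8 receptors were still below 0, from -0.91 for Tlr8 to -0.0606 for Tlr1, and Myd88 was at 0.49. In the pair itself, A12 over B14, Tlr8 was at 0.340, Tlr4 at 0.500, Tlr7 at 0.517, Tlr2 at 0.551, Tlr6 at 0.580, Tlr1 at 0.598, Tlr3 at 0.658, Tlr5 at 0.780 and Myd88 at 0.871 of the control level. The other same-numbered pairs were mixed. A1 exceeded B5 for Tlr7 (1.26 times), Tlr8 (1.08), Tlr5 (1.51) and Myd88 (1.11), and A6 exceeded B9 for Tlr1 (1.21), Tlr2 (1.18), Tlr6 (1.04) and Myd88 (1.80). Each is a comparison of 1 library with another. With the replicate number as a block, the count of rows at an unadjusted p under 0.05 rose to 446 (4.15%) with none of the members among them, and no row passed the adjusted threshold.

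The rest of the pathway was taken from lists that cover partners, signal carriers and targets. Of 84 genes listed, 75 were in the table and 65 were tested. None passed an adjusted p under 0.05 or an unadjusted p under 0.05 in limma, where only 36 of all 10749 rows had the latter. On average with digitoxin, 44 were lower and 21 higher (34 lower with median-of-ratios scaling), and the median was -0.22 beside -0.16 for all rows. With the replicate block, 5 of the 65 had an unadjusted p under 0.05, all lower on average with digitoxin, and their adjusted p was 0.638. The share among all rows in that blocked fit was 4.15%. The 5 were Cxcl2, Ccl2, Il10, Il1rap and Cd14, of which Ccl2 is named here after its values were seen. Only 2 of the 65, Ly96 and Tnip1, had groups that did not overlap, where 4.16% of all rows had.

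Of the 6 genes listed as surface co-receptors, 5 were lower on average and 1 higher, with a median of -0.47 (-0.30 with median-of-ratios scaling, -0.20 without A12). Ly96 encodes MD-2, the subunit of TLR4 that holds lipopolysaccharide, and was at 83.8, 81.9 and 77.7 FPKM in tumors A1, A6 and A12 and at 121, 99.8 and 102 FPKM in controls B5, B9 and B14. The digitoxin-treated tumors were all below the controls for this mRNA, at 81.1 ± 3.10 against 107 ± 11.4 FPKM (SD, n = 3 each), and the log2 fold change was -0.40 (standard error 0.18, limma adjusted p = 0.926), and with 1 tumor left out it ran from -0.45 to -0.31. With median-of-ratios scaling it was -0.20. Cd14, which hands lipopolysaccharide to MD-2, was at 78.8, 42.1, 98.2, 102, 89.5 and 126 FPKM in the order A1, A6, A12, B5, B9 and B14. Its log2 fold change was -0.60 (standard error 0.35) with A6 lowest, and it was -0.25 without A6. Both were far above the receptor they serve. Ly96 was from 10.4 (B9) to 33.3 (A12) times the FPKM of Tlr4, and Cd14 from 9.34 (B9) to 42.0 (A12) times. Cd36, a scavenger receptor that works with TLR2 and TLR6, had -0.65 (standard error 0.88).

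Of 8 tested chaperones and endosomal proteases, 6 were higher and 2 lower on average, with a median of 0.0503 (0.24 with median-of-ratios scaling, and from 0.00195 to 0.10 with 1 tumor left out). UNC93B1, which carries TLR3, TLR7, TLR8 and TLR9 to endosomes, had mRNA at 69.8, 85.0 and 49.6 FPKM in A1, A6 and A12 with digitoxin and at 68.6, 64.2 and 49.3 FPKM in B5, B9 and B14 without it. A6 was highest for this carrier, while the endosomal receptors had their lowest sum there. Its log2 fold change was 0.15 (standard error 0.27) and -0.0291 without A6. Ctsb and Ctsk, which encode cathepsins, had 0.0716 (standard error 0.26) and 0.40 (standard error 0.47). Ctsk ran from 0.13 (without B9) to 0.88 (without B14) with 1 tumor left out.

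The signal carriers were mixed. Of 13 tested kinases and ubiquitin ligases, 10 were lower and 3 higher on average, with a median of -0.28 (-0.11 with median-of-ratios scaling, -0.12 without A6). IRAK1 is a kinase recruited by MyD88, and its mRNA had -0.75 (standard error 0.61), with 8.41 FPKM in A6 against 29.7 to 46.2 in the other 5. Without A6 it was -0.0709. Pik3ap1, which encodes the adaptor BCAP, had -0.82 (standard error 0.50), and it too is among the genes that the study listed from these tumors. Of the 4 other adaptors listed, 2 were in the table and 1 was tested, Ticam2, which encodes the TRIF-related adaptor TRAM and had -0.13 (standard error 0.38). Of 9 negative regulators 5 were lower and 4 higher, with a median of -0.0691 that turned to 0.10 with median-of-ratios scaling and ran from -0.22 (without B5) to 0.00966 (without B14) with 1 tumor left out. Tnip1, which encodes a partner of the ubiquitin editor A20, was higher in every digitoxin-treated tumor, at 72.1 ± 12.8 against 60.8 ± 1.86 FPKM (SD, n = 3 each). The groups barely parted, with A12 at 63.2 and B9 at 62.9 FPKM, and A6 was highest at 86.8. The log2 fold change of Tnip1 was 0.23 (standard error 0.21) and 0.0907 without A6. The phosphatase gene Dusp1, the deubiquitinase gene Cyld and Il1rl1, the IL-33 receptor gene, had 0.20 (standard error 0.26), -0.54 (0.52) and -0.69 (1.21). Of 8 transcription factors 4 were lower and 4 higher, with a median of 0.00321, which was 0.19 with median-of-ratios scaling and from -0.23 (without B14) to 0.23 (without B9) with 1 tumor left out. Rela, a subunit of NF-κB, had 0.12 (standard error 0.18), Irf8 had -0.71 (standard error 0.47) and Fos -0.53 (standard error 0.55). Without A6, Fos was at -0.00795, Irf8 at -0.29 and Cyld at -0.0574.

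Of 16 tested target genes of the pathway, 13 were lower and 3 higher on average, with a median of -0.52 (-0.33 with median-of-ratios scaling, and from -0.72 to -0.34 with 1 tumor left out). The neutrophil chemokine mRNA Cxcl2 was at 3.14, 0.311 and 93.7 FPKM in tumors A1, A6 and A12 and at 24.6, 6.5 and 234 FPKM in controls B5, B9 and B14. A12 and B14 were highest in their groups, the reverse of Myd88. Its log2 fold change was -2.15 (standard error 1.89, limma adjusted p = 0.926), and with 1 tumor left out it ran from -3.93 (without A12) to -0.79 (without B14). Il10, an anti-inflammatory cytokine mRNA, was at 2.54, 16.7, 18.8, 7.76 and 21.7 FPKM in A1, A12, B5, B9 and B14 and listed at 0 in A6, with -1.99 (standard error 1.05) in the fit, -1.0 without A6 and -3.07 without A12. Sod2, a mitochondrial superoxide dismutase gene, was the most abundant of the 16 and had -0.34 (standard error 0.34), which was -0.12 without A6 and -0.68 without A12. Of the listed receptors of the IL-1 family, whose signaling members share MyD88 with the Toll-like receptors, 4 were tested and all 4 were lower on average, with a median of -0.80. Il1r1 had -1.44 (standard error 0.74), Il1rap, the shared accessory chain, -1.08 (standard error 0.77) and Il1r2, a decoy receptor that does not signal through MyD88, -0.33 (standard error 0.39). Without A6 the first was at -0.70 and the second at -0.42, and without A12 Il1r2 was at -0.0425. Without A6 the median of these 4 was -0.46, and without A12 -1.32.

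**Figure D4:**
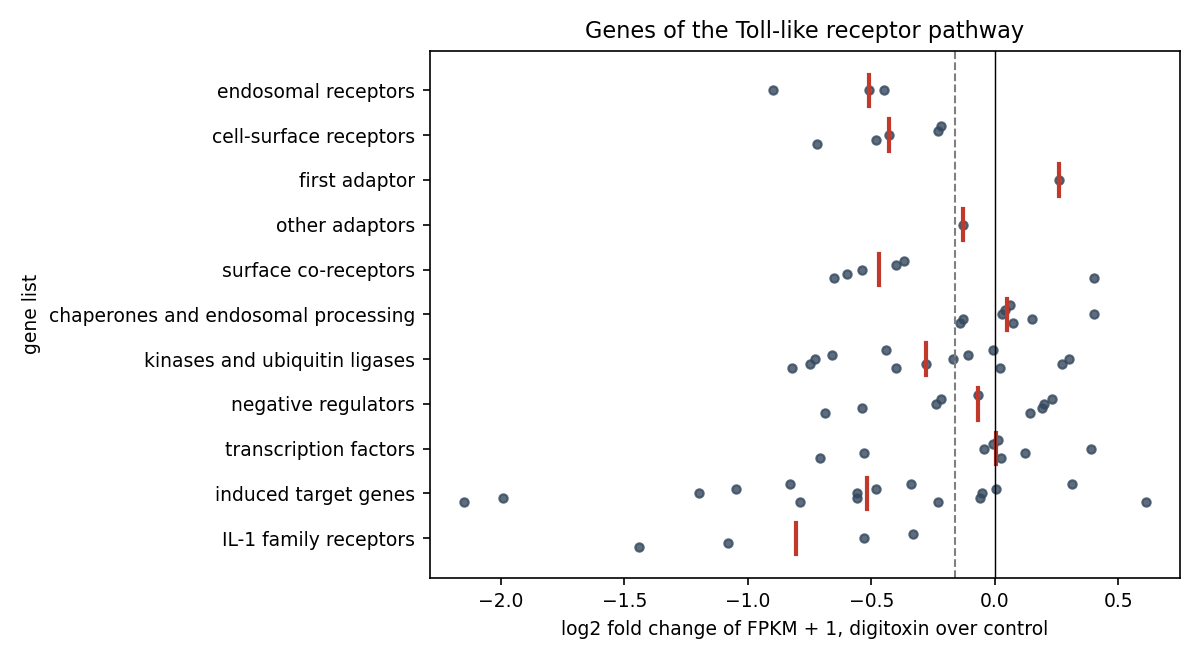
Log2 fold change of FPKM + 1, digitoxin-treated over control, for each tested gene (points) of the receptor classes and of the lists of partners, signal carriers and targets, with the median of each list as a red bar and the median of all rows tested (-0.16) as a dashed line; the vertical position of points within a list has no meaning. The endosomal and surface receptors lie below 0, and chaperones, negative regulators and transcription factors lie on both sides, with medians of 0.0503, -0.0691 and 0.00321 (with median-of-ratios scaling 0.24, 0.10 and 0.19).

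The rows whose pattern over the 6 tumors was most like that of a member were sought for the 3 tested members with the widest range of log2(FPKM + 1), which were Myd88 (2.03), Tlr8 (1.90) and Tlr5 (1.67). Likeness was the root mean square difference between centered log2 profiles, for which the median over 10740 rows was 0.864, 0.687 and 0.585. The nearest to Myd88 were Tmem53, Rwdd3 and Dok3, at 0.0707, 0.0763 and 0.0839. Among those nearest to Tlr8 were Pik3ap1 and Snx10, at 0.116 and 0.139, and those nearest to Tlr5 were Zswim5, Setd5 and Iqgap3, at 0.0677, 0.0803 and 0.0901. Pik3ap1 is also on the list of kinases and their partners and was, like Tlr8, highest in B9 and lowest in A6, at 10.6 and 2.09 FPKM.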

How the data were processed

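Messenger RNA of 6 tumors was measured by single-read sequencing of TruSeq libraries. The authors aligned the reads with Bowtie 2 and TopHat 2, computed expression with Cufflinks 2 and deposited FPKM, with 1 column per tumor; the scaling between libraries is not given in the sources used here. Reads were not analysed here, so depth, counting error and detection limits are unknown. Cuffdiff, which the study used, needs reads and was not repeated. Where a symbol had several rows (467 symbols), the one with the highest mean was taken.

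The digitoxin-treated and control groups were set against each other in R 4.3.3 by limma 3.58.1 (lmFit and trended eBayes) on log2(FPKM + 1), using rows whose mean reached 1 FPKM, two-sided, adjusted by Benjamini and Hochberg over all rows, at a threshold of 0.05. Standard errors and 95% intervals are the moderated ones. Exact tests used scipy 1.17.1, tables pandas 2.3.3 and numpy 2.4.6, and figures matplotlib 3.10.9, under Python 3.11.15. The fit was run on simulated data with independent noise and shifts far larger than the differences of the members. That run therefore does not show how well differences of their size would be found.

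The members, the pathway and marker lists and the tests were chosen with earlier results of these data known. Named genes are the 10 members, the most abundant and the 2 most changed tested genes of each pathway list, those with an unadjusted p under 0.05 or groups that do not overlap, and the rows most like a member. A few genes that this rule or the marker lists name are not reported here.

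Each comparison was repeated with the replicate number as a block, with untrended eBayes, with libraries scaled by median of ratios, with every row kept, with a pseudocount of 0.1, with each tumor left out and with A12 and B14 (both numbered 3) left out, and, for the class ratio, mean log2 levels and leaving out Tlr3 or Tlr4. Same-numbered tumors deviated together from their group means, with r across rows of 0.426 (A1 and B5), 0.606 (A6 and B9) and 0.869 (A12 and B14), though A1 with B9 reached 0.644 and A6 with B5 0.612. The numbers come from the sample titles, which do not say what they share.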

Additional observations from a re-analysis of the deposited data

How the results depend on the processing

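No member and no other pathway gene passed an adjusted p under 0.05 under any alternative run. Over all rows, 2 passed without B14 or without A12 and B14, and 0 in the other fits; leaving out 1 tumor gave from 0 to 2. The 36 rows at an unadjusted p under 0.05 became 185 without a filter, 446 with the replicate block, 1183 without A12 and B14, and from 13 (without A6 or B9) to 2114 (without A12) with 1 tumor left out. The 447 rows whose groups did not overlap became 6153 without A12 and B14, and from 548 to 5479 with 1 tumor left out, where fewer tumors overlap less often by construction.

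The 8 tested receptors were below 0 in every fit but the one without A12, where Tlr6 was above 0; Tlr6 ran from -0.53 to 0.19 and Myd88 from -0.19 to 0.83 with 1 tumor left out. The log2 difference in the ratio of endosomal to surface FPKM ran from -0.72 (without A1) to 0.0691 (without A6), and was -0.0641 by mean log2 levels, -0.51 without Tlr3 and -0.45 without Tlr4. Among other genes the direction turned with 1 tumor left out for Ticam2 (-0.38 to 0.0931, and 0.10 without A12 and B14), Cd36 (-1.28 to 0.0645), Ctsb (-0.0230 to 0.26), Unc93b1 (-0.0291 to 0.35), Dusp1 (-0.00650 to 0.36) and Il1rl1 (-1.74 to 0.31). With 1 tumor left out Cd14 ran from -0.85 to -0.25, Irak1 from -1.23 to -0.0709, Pik3ap1 from -1.25 to -0.54, Cyld from -0.94 to -0.0574, Rela from 0.0761 to 0.19, Fos from -1.0 to -0.00795, Irf8 from -0.97 to -0.29, Il10 from -3.07 to -1.0, Il1r1 from -2.01 to -0.70, Il1rap from -1.84 to -0.42 and Il1r2 from -0.62 to -0.0425. With median-of-ratios scaling the median of negative regulators was 0.10 and that of chaperones 0.24. The replicate block changed no adjusted call. With a pseudocount of 0.1 the log2 fold change of Tlr8 was -1.49 and that of Tlr5 -0.93. The cause of these changes was not tested. The unknown depth limits the precision of Tlr9 and of other values below 1 FPKM.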

Other observations

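Rodents carry further Toll-like receptors. Tlr10, Tlr11 and Tlr12 were in the table and below the minimum mean. Tlr10 was at 2.01 FPKM in B9 and from 0.0369 to 0.457 FPKM in the other 5 tumors. Tlr11 and Tlr12 were highest in B9 too, at 0.470 and 0.481 FPKM, and listed at 0 in A12. B9 was thus highest for these 3 as well as for Tlr3, Tlr4, Tlr7, Tlr8 and Tlr9.

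Some mRNAs that the pathway is known to induce were listed at 0 or low in most tumors. Ifnb1, the interferon beta gene, was listed at 0 in all 6 tumors, and Il12b was listed at 0 in 5 and at 0.217 FPKM in B9. Il6 was from 0.248 in A1 to 1.62 FPKM in A12, and Nos2, the inducible nitric oxide synthase gene, reached 3.89 FPKM in B14 and 1.33 in A12 and was at most 0.381 FPKM in the other 4. Il1b, in contrast, was at 92.2, 217 and 55.1 FPKM in A1, A6 and A12 with digitoxin and at 101, 114 and 95.7 FPKM in B5, B9 and B14 without it, so A6 and A12, both treated with digitoxin, were its extremes.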
